A study of Rattus norvegicus with 18 samples.

Results

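The comparison described here is that of SHR kidney with WKY kidney at 3 weeks of age, before the SHRs become hypertensive. Its arrays were chosen by their sample labels alone, 3 for each strain, and are 6 of the 18 arrays of the series. WKY rats are the normotensive control strain, and SHRs are an inbred strain of the same origin in which blood pressure rises as the animals grow. The series also holds SHRSP, a stroke-prone substrain of SHRs, and all 3 strains at 6 weeks of age. The animals (SHR/Izm and WKY/Izm) were untreated, their sex is not given in the sources used here, and the labels call the 3 samples of a group biological replicates. Total RNA of the whole kidney was labelled with cyanine-3 and hybridised to 1-colour Agilent arrays of the rat genome, 1 array for each sample.

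The kidney sets blood pressure over the long term through the amount of sodium it returns to the body. Angiotensin II, which is cut from angiotensinogen, raises sodium reabsorption and constricts vessels. Glucocorticoids and aldosterone act on the tubule through nuclear receptors that switch on genes such as Sgk1, Fkbp5 and Zbtb16, and arachidonic acid products made by cytochrome P450 enzymes of the 4A family in the proximal tubule alter both vessel tone and sodium transport.

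For scaling, the 75th percentile was taken over those spots of an array that exceeded background clearly, every signal of the array was set in relation to it, and the log2 of this ratio is called the log2 scaled signal. A value of 0 stands for the level of that percentile, and a log2 difference of 1 for 2-fold. Between 70.8% and 75% of the spots of the 6 arrays were well above background. With 3 arrays in each group, precision is limited. The log2 difference between the strains always means SHR minus WKY. Tests with limma took in each probe that had signal well above background in the whole group of 3 arrays for SHRs, for WKY rats or for both, and a probe was called when its Benjamini-Hochberg adjusted p was under 0.05. The 3 WKY arrays and SHR replicate 1 lay on the same slide, SHR replicates 2 and 3 lay on another, and all 6 were scanned on the same day. With slide as a block, the estimate of a difference therefore equals SHR replicate 1 minus the mean of the WKY arrays on its own slide, and it is called the within-slide difference.

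The labels were checked first across all 6 groups of the series. Vegfb, a vascular endothelial growth factor, read -8.51, -8.57 and -8.98 on the arrays labelled SHR at 3 weeks and -8.69, -8.34 and -8.61 on those labelled SHRSP at 6 weeks. In the remaining 4 groups its group means lay between -0.51 and -0.25. Apoh, a plasma protein that binds phospholipids, and Rxrg, a nuclear receptor, followed the same pattern. Apoh had group means of -8.27 in SHR at 3 weeks and -8.30 in SHRSP at 6 weeks, and of -2.50 in SHRSP at 3 weeks and -2.17 in SHR at 6 weeks. Agtrap, which binds the angiotensin II receptor, and Ephx2, the soluble epoxide hydrolase, were low in the other pair of groups. Agtrap had means of -3.91 in SHRSP at 3 weeks and -2.95 in SHR at 6 weeks, against 1.25 in SHR at 3 weeks and 1.96 in SHRSP at 6 weeks. Across 20291 probes, the difference between the arrays labelled SHR and those labelled SHRSP at 3 weeks correlated with that at 6 weeks with r of -0.39 and a rank correlation of -0.12, where probes are not independent replicates. The difference was over 4-fold at both ages for 33 probes, and in all 33 its sign was opposite at the 2 ages. These 5 genes thus set the arrays labelled SHR at 3 weeks beside those labelled SHRSP at 6 weeks, and the arrays labelled SHRSP at 3 weeks beside those labelled SHR at 6 weeks. Whether a gene changed with age or a strain label differs between the ages was not tested, no array was moved, and SHR means the arrays labelled SHR throughout.

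**Figure D1:**
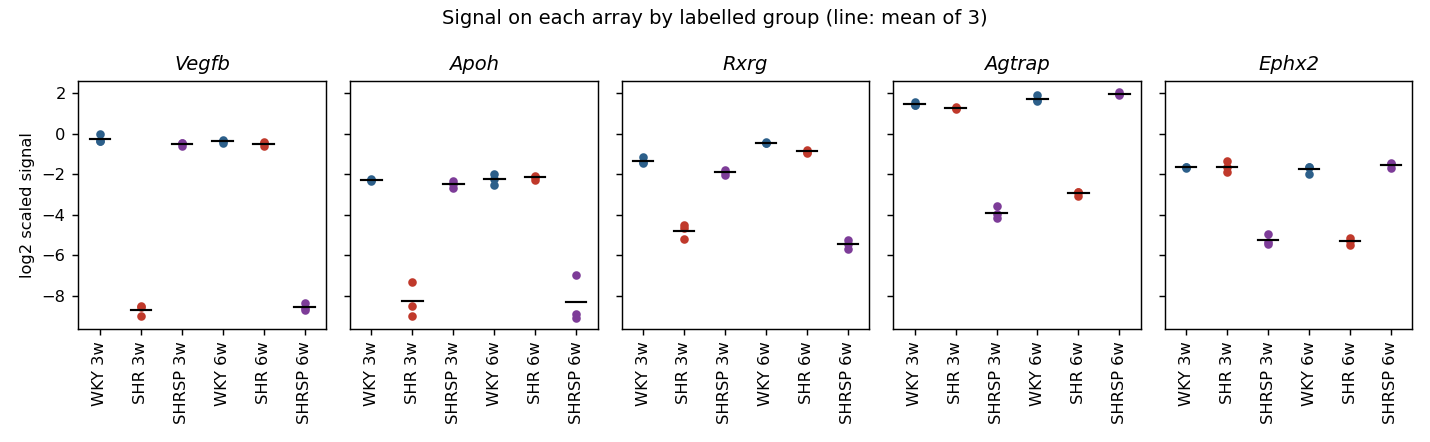
Log2 scaled signal of Vegfb, Apoh, Rxrg, Agtrap and Ephx2 on each of the 18 arrays, by labelled group, with a line at the mean of 3 arrays. Vegfb, Apoh and Rxrg are low in SHR at 3 weeks and in SHRSP at 6 weeks, and Agtrap and Ephx2 are low in SHRSP at 3 weeks and in SHR at 6 weeks.

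The tissue label was checked against marker genes of kidney cells and of neighbouring organs. All 12 measured proximal tubule markers, all 5 of the thick ascending limb, all 6 of the collecting duct principal cell, all 8 of the intercalated cell and all 7 of the podocyte were bright enough to be tested. Of 14 adrenal markers 8 stayed at background on all 6 arrays, among them Cyp11b1, Cyp11b2 and Star of steroid synthesis and Dbh of catecholamine synthesis. Of 14 skeletal muscle markers 7 were likewise below it, and of the liver markers Apoa2 and Cyp7a1. However, 7 of 14 liver, 7 of 9 fat, 6 of 7 blood and 6 of 10 nerve markers were bright enough to be tested. Another 5 liver markers rose above background on some arrays only. Within a strain, arrays correlated with r of 0.9948 to 0.9972 across 19664 probes, and between strains with r of 0.9894 to 0.9923.

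Among 19664 probes tested, 1586 (8.07%) were called, 705 with a higher signal in SHRs (3.59%) and 881 with a lower one (4.48%). Most of the differences were moderate. Only 73 were over 4-fold, with 43 higher and 30 lower in SHRs, and 238 were between 2- and 4-fold, with 128 higher and 110 lower. In 30 of the 73 no array of 1 strain was well above background, and with every dim signal replaced by the weakest one that still counted as well above background on its array, 56 were over 4-fold. The other 1275 were under 2-fold, with 534 higher and 741 lower, and made up 80.4% of all called probes. The median absolute log2 difference of the called probes was 0.58, and the median log2 difference of all tested probes was -0.04. The 3 arrays of 1 strain did not overlap with the 3 of the other in 1576 of the 1586 called probes and in 4217 of all tested ones (21.4%). An exact permutation test of 3 arrays against 3 cannot give a p below 0.10, so the calls rest on the spread that limma shares between probes. With slide as a block, 754 probes were called, of which 648 were among the 1586, and with the 6 arrays fitted alone 668 were called. SHR replicate 2 weighed most on the smaller differences. Without it, 558 probes had a lower signal in SHRs and 837 were called under 2-fold.

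**Figure D2:**
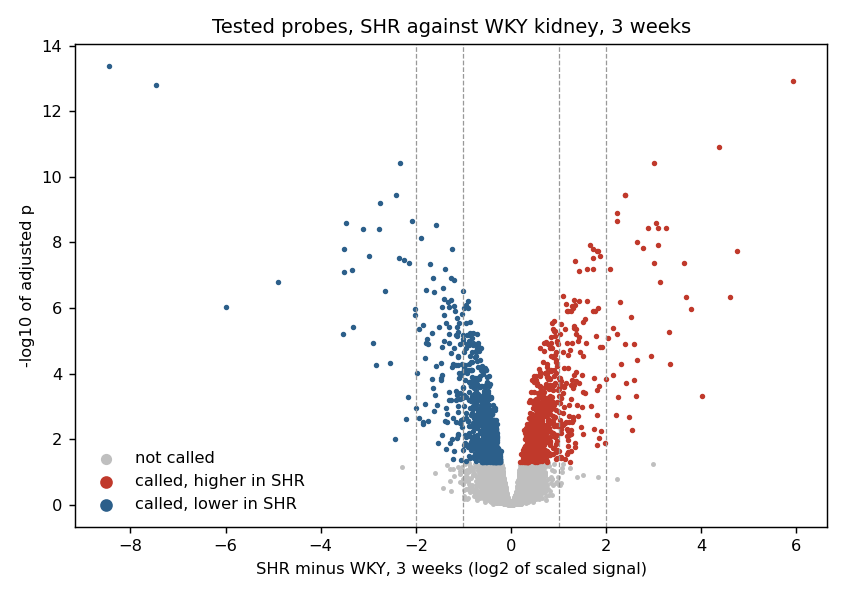
Each point is 1 of the 19664 tested probes, with the log2 difference between SHR and WKY kidney at 3 weeks on the horizontal axis, the -log10 of the adjusted p on the vertical axis, and broken lines at 2-fold and 4-fold. Called probes are red where SHRs were higher (705) and blue where they were lower (881), and most of them lie inside the 2-fold lines.

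Counted by genes, with the brightest probe standing for each, 1099 of 12171 genes were called (9.03%). The signal of 470 was higher in SHRs (3.86%) and that of 629 lower (5.17%), and the median log2 difference over all 12171 was -0.05. These shares are the background for every gene list that follows. Lists and members were chosen with earlier results of these data known, so the share of calls in a list is a description and no test of a function. In RNA of whole kidney, fewer cells of a type and less RNA per cell cannot be told apart.

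Among the largest fitted differences were genes with signal in only 1 of the strains. Where 1, 2 or all 3 arrays of 1 strain were not well above background, the mean of the bright strain was set against the arrays of the dim strain after each of these had been replaced, where lower, by the weakest signal that still counted as well above background there. Where this replaced at least 1 array, the fold is a bound and is given as at least so many fold. The probes that carry results of different kinds below are printed from 5′ to 3′, as found on the array, with their positions in the rn4 assembly. Vegfb, at chr1:209657830-209657889, and Apoh, at chr10:97732840-97732899, stand for genes without measurable signal in SHRs. Cyp4a2, at chr5:135547423-135547482, and Cyp4a3, at chr5:135876161-135876220, are members of the same family that differed in opposite directions. Fkbp5, at chr20:6637600-6637659, stands for the glucocorticoid targets and Agt, at chr19:54738614-54738673, for the angiotensin system.
Vegfb: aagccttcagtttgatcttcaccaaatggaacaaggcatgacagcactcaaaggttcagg
Apoh: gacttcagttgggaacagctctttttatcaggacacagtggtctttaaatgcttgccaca
Cyp4a2: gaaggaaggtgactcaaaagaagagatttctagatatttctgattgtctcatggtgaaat
Cyp4a3: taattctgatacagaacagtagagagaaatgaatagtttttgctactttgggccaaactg
Fkbp5: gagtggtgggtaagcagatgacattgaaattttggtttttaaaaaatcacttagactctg
Agt: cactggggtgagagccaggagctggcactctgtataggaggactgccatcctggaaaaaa

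Vegfb read -8.51, -8.57 and -8.98 on the SHR arrays and -0.01, -0.39 and -0.34 on the WKY arrays, and was at least 97.7-fold lower in SHRs. Apoh read -8.50, -8.99 and -7.31 against -2.33, -2.23 and -2.28, at least 23.8-fold lower. No SHR array was well above background for either gene, and each was measured by a single probe. Myo16, an unconventional myosin, read -8.73, -8.67 and -7.42 in SHRs and -3.46, -3.33 and -3.31 in WKY rats, at least 11.2-fold lower. Ros1, a receptor tyrosine kinase, was at least 4.43-fold lower, and Hsd17b13, a lipid droplet enzyme, at least 2.84-fold lower. In these 5 genes the WKY arrays were all measured and the SHR arrays were all at background.

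Rxrg read -4.66, -4.52 and -5.21 in SHRs and -1.43, -1.39 and -1.18 in WKY rats, 11-fold lower with a log2 difference of -3.47 (standard error 0.151, adjusted p = 2.61e-09). All 6 arrays measured it and the strains did not overlap. Tspan1, a tetraspanin of epithelia, read 0.03, -0.26 and 0.30 against 2.78, 2.83 and 2.82, 6.89-fold lower. Serhl2, a serine hydrolase, was 6.75-fold lower and Krt76, a keratin, at least 8.41-fold lower, the latter with 2 of 3 SHR arrays well above background. Sox2, a transcription factor of stem cells, was at least 7.09-fold lower, with 1 of 3 SHR arrays well above background. The WKY arrays of these genes lay above every SHR array.

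On the other side stood Adtrp, an enzyme that hydrolyses fatty acid esters of hydroxy fatty acids. It read 0.27, 0.20 and 0.36 in SHRs and -5.55, -5.57 and -5.86 in WKY rats, 61.1-fold higher with a log2 difference of 5.93 (standard error 0.108, adjusted p = 1.22e-13). Both groups were narrow and well apart, and all 6 arrays measured it. Serpina3m, a serine protease inhibitor, read -4.34, -4.75 and -4.49 against -8.95, -8.77 and -9.0, at least 5.68-fold higher. Oxnad1, which carries an oxidoreductase domain, was at least 6.02-fold higher and Tp73, a relative of p53, at least 4.81-fold higher. For these 3 genes no WKY array was well above background.

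Slco1a1, a transporter of organic anions, read -1.36, -1.28 and -1.56 in SHRs and -4.46, -4.36 and -4.54 in WKY rats, 8.31-fold higher. The strains were separated by far more than the spread within either. Slc49a3 was 8.54-fold higher, and its second tested probe was called in the same direction, with a log2 difference of 1.90. Prp2l1 was 8.55-fold higher. Dhrs7l1 was at least 12.3-fold higher, with 2 of 3 WKY arrays well above background, and Gpr35, a receptor coupled to G proteins, at least 7.43-fold higher, with 1 of 3. Cyp4a2, named by the same rule, is described with its family. The rule took the 10 largest fitted differences over 4-fold without overlap in each direction, out of 27 higher and 18 lower genes. The lack of overlap noted for the genes named by it was therefore set by the choice. For genes at background in 1 strain the fitted size is not measured, so neither is their rank, and for Hsd17b13, with a bound of 2.84-fold, a difference over 4-fold is not established.

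Between 2- and 4-fold the rule took the 15 genes of smallest p in each direction, out of 70 higher and 73 lower without overlap. The lack of overlap in these genes was thus a condition of the choice and not a result. Slc17a3, which carries urate and organic anions, read 1.47, 1.54 and 1.64 in SHRs and 0.54, 0.38 and 0.46 in WKY rats, 2.13-fold higher (adjusted p = 4.15e-07). Slc30a2, a zinc exporter, read -0.91, -0.88 and -0.79 against -2.15, -2.30 and -2.13, 2.52-fold higher. Neither overlapped between the strains. Slc28a2, a purine nucleoside transporter, was 3.30-fold higher by its brighter probe, while its other tested probe was not called, with a log2 difference of 0.21. Acsm5, a medium-chain acyl-CoA synthetase of mitochondria, was 2.69-fold higher by its brighter probe, and its other tested probe gave 0.19 and was not called.

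Tff3, a secreted trefoil peptide, read 3.11, 3.23 and 3.17 in SHRs and 1.43, 1.75 and 1.53 in WKY rats, 3.03-fold higher. Spink1l, a protease inhibitor, was 3.04-fold higher. Every SHR array of these genes exceeded every WKY array. Mcm7, a subunit of the replicative helicase, was 2.31-fold higher, Myl11, a myosin light chain, 3.41-fold, Cfap126, a protein of cilia, 3.52-fold, Mcoln2, a lysosomal channel, 2.52-fold, Tor1b 2.46-fold and Bcl2l15 2.50-fold. Gsta1 and Fmo2, also of this group, are taken up with their functions.

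Of the moderately lower genes, Nmb, the precursor of neuromedin B, read -4.99, -4.87 and -4.69 in SHRs and -3.0, -3.06 and -2.82 in WKY rats, 3.71-fold lower (adjusted p = 7.54e-09). Cryga, a crystallin, read -2.81, -2.85 and -2.74 against -1.21, -1.20 and -1.25, 2.99-fold lower. All arrays measured both and the ranges were apart. Abcb10, a transporter of the inner mitochondrial membrane, was 3.09-fold lower, Med17, a subunit of Mediator, 2.64-fold, Ptgr1, which reduces prostaglandins and leukotrienes, 2.47-fold, and Pxmp4, a peroxisomal membrane protein, 2.65-fold. Dusp19, a phosphatase, was 3.24-fold lower, Grik2, a kainate receptor subunit, 2.39-fold, Timd2, a receptor for ferritin, 2.51-fold, Tatdn3 2.73-fold, Caln1 2.03-fold and Cmahp 2.26-fold. For Slc66a2 (2.02-fold lower) and Ky (2.68-fold lower) a second tested probe was called in the same direction.

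With all 18 arrays fitted without a block, the list with the greatest share of calls was that of glucocorticoid and fasting response. Like every list, it was chosen with earlier results of these data known, so its share is a description only. Of its 23 tested genes 12 were higher in SHRs (52.2%, against 3.86% of all genes tested) and 1 was lower (against 5.17%), and the median log2 difference was 0.40 against -0.05. Fkbp5, a chaperone of the glucocorticoid receptor, read -0.03, 0.65 and 0.87 in SHRs and -1.85, -1.91 and -1.92 in WKY rats, 5.23-fold higher with a log2 difference of 2.39 (standard error 0.240, adjusted p = 1.26e-05). Its lowest SHR array lay well above the highest WKY array, and the within-slide difference was 1.86 (adjusted p = 8.59e-04 with slide as a block). Sgk1, a kinase that keeps the epithelial sodium channel at the cell surface, read 1.90, 1.84 and 1.92 against -0.14, 0.15 and 0.42, 3.35-fold higher (adjusted p = 1.32e-04). The SHR arrays were nearly equal and all above the WKY arrays.

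Ddit4, an inhibitor of mTOR signalling, read 0.56, 0.06 and 0.60 in SHRs and -1.02, -0.83 and -0.83 in WKY rats, 2.46-fold higher, and its second probe was called too, with a log2 difference of 1.18. Zbtb16, a zinc finger repressor, read -5.17, -5.27 and -4.35 against -6.65, -7.02 and -8.77, at least 3.85-fold higher, with 1 of 3 WKY arrays well above background. Neither overlapped between the strains. The metal-binding proteins Mt1 (log2 difference 1.27) and Mt2A (1.26), the transcription factors Cebpd (1.05), Klf15 (0.93), Cebpb (0.65) and Klf9 (0.40), and Tsc22d3 (0.77), the glucocorticoid-induced leucine zipper, were also higher, as was the clock gene Per1 (0.82, with 2 of 3 WKY arrays well above background). Igf1, which falls in fasting, was lower by a log2 difference of -0.41. The glucocorticoid receptor itself, Nr3c1, gave -0.07 and was not called.

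Genes of glucose production on the same list were not called: Pck1 gave 0.35, G6pc1 0.40 and Fbp1 0.18. Tat stayed at background on all 6 arrays, and Pdk4 rose above it on some of them only. The summed scaled signal of the list was 194, 224 and 214 on the SHR arrays and 145, 136 and 167 on the WKY arrays, where Fbp1 was the most abundant gene with 55.0% of the sum, and the strains did not overlap. The within-slide median was 0.47. With slide as a block 5 were called higher, with the 6 arrays fitted alone 7, and with 1 array left out 10 to 14. In either of the first 2 fits the list of steroid and xenobiotic metabolism, which is larger, had more calls, 7 higher and 2 lower with slide as a block and 6 higher and 3 lower with the 6 arrays alone, so the order of the lists depended on the fit. Mt1, Mt2A, Klf15, Cebpb, Klf9, Per1, Igf1 and Zbtb16 were those not called with slide as a block, and Klf9, Per1 and Igf1 also lost their call without at least 1 of the 6 arrays, Per1 only without WKY replicate 2.

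**Figure D3:**
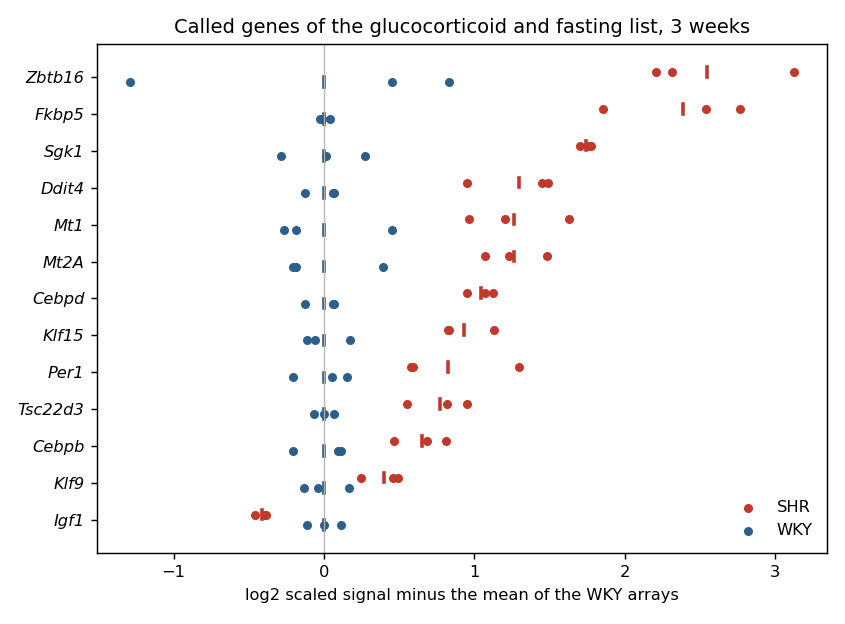
Log2 scaled signal of the 13 called genes of the glucocorticoid and fasting list on each of the 6 arrays, with the mean of the WKY arrays of that gene set to 0 and a bar at each group mean. In 12 genes the SHR points lie to the right of the WKY points, and in Igf1 they lie to the left.

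In the angiotensin system 2 of 12 tested genes were higher in SHRs and 1 was lower, with a median of 0.02. Agt, the precursor of the angiotensins, read -2.35, -2.26 and -2.29 in SHRs and -0.67, -1.14 and -1.17 in WKY rats, 2.48-fold lower (log2 difference -1.31, standard error 0.188, adjusted p = 3.59e-04). All SHR arrays lay below all WKY arrays, and the within-slide difference was -1.36. Mme, or neprilysin, which degrades angiotensins and natriuretic peptides, read 2.66, 2.48 and 2.60 in SHRs and 2.21, 2.19 and 2.29 in WKY rats, 1.28-fold higher (adjusted p = 0.00425).

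Ace, which makes angiotensin II, and the receptors of this system were not called. Ace gave a log2 difference of 0.16, and the receptors Agtr1a and Agtr1b gave 0.02 and 0.16. Agtrap gave -0.20, Atp6ap2, an accessory protein of the proton pump, -0.19, the aminopeptidases Enpep and Lnpep 0.03 and -0.13, and the chymase Cma1 0.61. Agtr2 stayed at background on all 6 arrays, and Mas1 rose well above it on only 1 array of each strain. Of the kallikrein-kinin system, 1 of 6 tested genes was called, with a median of -0.03. Serpina4, an inhibitor of tissue kallikrein, was 1.56-fold higher in SHRs (adjusted p = 0.00470), and its within-slide difference of 0.33 was not called. The kininogens Kng1 and Kng2 gave -0.25 and -0.60, the kallikreins Klk1 and Klkb1 0.16 and -0.23, and the receptor Bdkrb2 0.25, none of them called, and Bdkrb1 stayed at background on all 6 arrays.

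Among sodium and chloride transport genes, 2 of 30 tested were higher and 5 lower, with a median of -0.14. Cftr, a chloride channel, read -3.64, -2.55 and -3.91 in SHRs and -6.25, -6.0 and -5.80 in WKY rats, 6.28-fold higher (adjusted p = 3.87e-05). SHR replicate 2 was the highest of the 6 arrays, and the ranges did not overlap. The other higher gene was Sgk1. Slc4a4, the bicarbonate carrier of the basolateral membrane, was 1.36-fold lower (adjusted p = 0.00247), and Oxsr1 and Stk39, kinases that activate chloride cotransporters, were 1.32- and 1.17-fold lower. Kcnj16, a potassium channel subunit, was 1.23-fold lower and Fxyd4, a regulator of the sodium pump, 1.41-fold lower. Of these lower genes Oxsr1, Stk39, Kcnj16 and Fxyd4 were not called when certain of the 6 arrays were left out singly. With the 6 arrays fitted alone, 2 genes of the list were called higher and 0 lower.

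The apical sodium carriers did not pass the test. Slc12a1, the target of loop diuretics, gave -0.01, Slc12a3, the target of thiazides, -0.18, and the channel subunits Scnn1a, Scnn1b and Scnn1g gave 0.22, -0.17 and -0.15. Slc9a3, the sodium-hydrogen exchanger, gave 0.41 with overlapping arrays, and the phosphate carrier Slc34a1 gave 0.04. The sodium pump subunit Atp1b1 gave 0.00, the kinases Wnk1 and Wnk4 -0.26 and 0.22, the ubiquitin ligase Nedd4l -0.09 and the mineralocorticoid receptor Nr3c2 0.05. Bsnd, a subunit of chloride channels, gave -0.24, the potassium channel Kcnj1 -0.13, Slc12a2 -0.17, Slc26a4 -0.09, Slc4a1 -0.18, Fxyd2 -0.06, Nherf1 -0.16 and Umod 0.06. Kcnj10 stayed at background on all 6 arrays. Of the water and urea transport list, 1 of 10 tested genes was higher and 1 lower, with a median of -0.02. Aqp3, a water and glycerol channel, read 2.26, 2.17 and 2.32 in SHRs and 1.73, 1.69 and 1.57 in WKY rats, 1.5-fold higher (adjusted p = 5.31e-04), and Avpr1a, a vasopressin receptor, was 1.32-fold lower.

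Enzymes of steroid and xenobiotic metabolism were called in 14 of 29 tested genes, 10 higher in SHRs (34.5%) and 4 lower, with a median of 0.25. Inmt, a methyltransferase, read 1.1, 1.01 and 1.27 in SHRs and -1.33, -1.38 and -1.84 in WKY rats, 6.25-fold higher (adjusted p = 9.88e-09). Sult1b1, a sulfotransferase, read 2.02, 1.99 and 1.97 against -0.35, -0.52 and -0.32, 5.25-fold higher, and its second probe gave a log2 difference of 2.40. The strains lay apart by many times the spread of their arrays in both genes. Fmo2, which oxidises amines and sulfides, was 3.30-fold higher, while Fmo1, Fmo4 and Fmo5 of the same family gave 0.16, 0.11 and 0.20 and were not called.

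Akr1c12l1, an aldo-keto reductase, read -1.47, -1.53 and -1.60 in SHRs and -3.86, -3.55 and -3.84 in WKY rats, 4.66-fold higher. Its relative Akr1c12 was 1.5-fold lower, and Akr1c19 was 1.19-fold higher. Sult1a1 was 1.68-fold and Sult1c3 1.90-fold higher, Cyp2d4 1.42-fold, and Hsd3b1, an enzyme of steroid synthesis, 1.5-fold. Besides Hsd17b13 and Akr1c12, the lower genes were Hsd17b2, which inactivates oestradiol and testosterone, with 1.69-fold, and Cyp2s1 with 1.40-fold. The within-slide median of the list was 0.19, and 7 genes were called higher and 2 lower with slide as a block. Akr1c12, Akr1c19 and Cyp2d4 lost their call without at least 1 of the 6 arrays.

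Fatty acid oxidation and peroxisome genes were called in 6 of 34 tested, 5 higher and 1 lower, with a median of 0.09. Acox2, the peroxisomal oxidase of branched-chain acyl-CoA, read 0.21, 0.17 and 0.33 in SHRs and -2.83, -2.82 and -2.64 in WKY rats, 8-fold higher (standard error 0.0897, adjusted p = 3.68e-11). The arrays of the strains did not overlap. The thioesterases Acot3 and Acot4 were 1.59- and 1.5-fold higher, and the thiolase Acaa1a was 1.47-fold lower. Ppara, Cpt1a and Acadm, which serve oxidation in mitochondria or its control, gave 0.00, 0.15 and 0.12 and were not called.

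In eicosanoid metabolism, 5 of 25 tested genes were higher and 3 lower, with a median of 0.01. Cyp4a2, an omega-hydroxylase of fatty acids, read 0.75, 0.86 and 0.97 in SHRs and -3.43, -2.17 and -2.75 in WKY rats, 12.5-fold higher (log2 difference 3.64, standard error 0.210, adjusted p = 4.18e-08). Cyp4a3, a close relative, read 3.30, 3.42 and 3.45 against 4.63, 4.61 and 4.66, 2.37-fold lower (log2 difference -1.25, standard error 0.0651, adjusted p = 1.57e-08). The genes thus differed in opposite directions, each without overlap between the strains. Cyp4a8 gave 0.48 by its brighter probe and 1.71 by its other, both called, Cyp4a1 was 1.41-fold and Cyp4f5 1.55-fold higher, and Cyp2j4, an epoxygenase, 1.42-fold. The prostaglandin synthases Ptgds and Ptges were 1.77- and 1.37-fold lower, and Ptgs1 and Ptgs2, the cyclooxygenases, gave -0.14 and -0.41 and were not called. Cyp4a1, Cyp4a8 and Ptges lost their call without WKY replicate 1, and Cyp4a8 kept it when any other array was left out.

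Retinoid and vitamin D genes were called in 6 of 29 tested, 2 higher and 4 lower, with a median of -0.08. Rdh16, which oxidises retinol, read -0.03, -0.32 and -0.38 in SHRs and -2.71, -2.87 and -2.03 in WKY rats, 4.89-fold higher, and its second probe gave a log2 difference of 1.65. Gc, the vitamin D binding protein, read -2.75, -2.76 and -2.62 against -5.88, -5.65 and -5.45, 7.74-fold higher. The strains did not overlap in either gene. Cyp26a1, which degrades retinoic acid, was 2.03-fold lower and Cyp26b1 1.46-fold lower, and Stra6, the retinol uptake receptor, 1.34-fold lower. With Rxrg these were the 4 lower genes, of which Cyp26b1 and Stra6 lost their call without at least 1 of the 6 arrays.

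In glutathione and redox defence 2 of 39 tested genes were higher and 4 lower, with a median of -0.01. Gsta1, a glutathione transferase, read 3.32, 3.13 and 3.10 in SHRs and 1.38, 1.31 and 1.40 in WKY rats, 3.54-fold higher (adjusted p = 1.76e-08). All 6 arrays measured it and the groups lay apart. Gsta3 was 2.04-fold higher by its brighter probe, and its other tested probe gave 0.15 and was not called. Sod3, the extracellular superoxide dismutase, was 1.5-fold lower, Gstt2 1.44-fold, Prdx1 1.41-fold and Nfe2l2, which drives the response to oxidants, 1.23-fold, the last of these lost without at least 1 of the 6 arrays.

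Extracellular matrix and TGF-beta genes were called in 5 of 37 tested, 4 higher and 1 lower, with a median of -0.06. Ccn2, connective tissue growth factor, read 1.05, 1.85 and 1.29 in SHRs and -0.91, -0.81 and -0.78 in WKY rats, 4.69-fold higher (adjusted p = 6.36e-06). Spock2, a proteoglycan, read -0.94, -0.79 and -0.63 against -3.76, -3.58 and -3.66, 7.37-fold higher, and its other probe gave a log2 difference of 4.6. Each SHR array of both genes was above each WKY array. Mmp9, a gelatinase, was 1.72-fold and Col4a2, a basement membrane collagen, 1.57-fold higher, and the inhibitor Timp2 was 1.36-fold lower. Fibrillar collagens Col1a1, Col1a2 and Col3a1 gave -0.08, -0.13 and -0.06 and were not called.

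Of the vascular tone and angiogenesis list, 1 of 31 tested genes was higher and 3 were lower, with a median of 0.04. Besides Vegfb, the subunits of soluble guanylate cyclase, Gucy1a1 and Gucy1b1, were 1.30- and 1.37-fold lower. Other tested probes of these subunits gave -0.27 and -0.14 and were not called. Gucy1a1 lost its call without at least 1 of the 6 arrays. Vegfa, its receptors Flt1 and Kdr and the synthase Nos3 gave 0.11, 0.11, -0.03 and 0.04 and were not called.

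Complement and coagulation genes were called in 8 of 32 tested, 4 higher and 4 lower, with a median of 0.01. F2, prothrombin, read -2.37, -2.19 and -2.12 in SHRs and -1.37, -1.15 and -1.47 in WKY rats, 1.86-fold lower (adjusted p = 0.00280). F5, a cofactor of thrombin formation, read -3.88, -3.82 and -3.61 against -4.48, -4.47 and -4.55, 1.66-fold higher, and F3, tissue factor, was 1.70-fold higher. The ranges of these genes were apart. Hrg, histidine-rich glycoprotein, was 1.65-fold higher, and its other probe was called too, with a log2 difference of 0.77, and Serping1, the inhibitor of complement C1, was 1.33-fold higher. Fga, a fibrinogen chain, was 1.41-fold and C5 1.23-fold lower, and C5 and Serping1 lost their call without at least 1 of the 6 arrays.

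Of 31 tested genes of the MHC and interferon response, 3 were higher in SHRs and 0 lower, with a median of -0.01. All 3 belong to MHC class II: Cd74, the invariant chain, read 2.64, 2.82 and 2.98 in SHRs and 2.06, 1.97 and 2.03 in WKY rats, 1.73-fold higher (adjusted p = 1.40e-04), and RT1-Bb and RT1-Da were 1.59- and 1.49-fold higher. The Cd74 arrays did not overlap between the strains, and RT1-Bb lost its call without at least 1 of the 6 arrays. Of the other class II genes listed, RT1-Db1 was tested and not called, and RT1-Ba stayed at background on all 6 arrays. Interferon targets such as Mx1, Isg15 and Irf7 gave 0.13, -0.04 and 0.06 and were not called. In the cell cycle list Mcm7 was the 1 called gene of 36 tested, which is 2.78%, and the median was -0.03. The within-slide median was -0.35, and with 1 array left out the median ranged from -0.16 to 0.10. Other helicase subunits, Mcm2 and Mcm6, gave -0.06 and -0.36. In the circadian clock list Per1 and Hlf (1.47-fold, with 2 of 3 WKY arrays well above background) were the 2 higher genes of 16 tested, and Bmal1, Cry1, Nr1d1 and Dbp gave -0.33, -0.37, 0.02 and 0.08 and were not called. Hlf lost its call without at least 1 of the 6 arrays.

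Of the immediate early and heat shock genes, 3 of 22 tested were higher and 0 lower, with a median of 0.15. Btg2, which slows cell division, read -0.90, -0.34 and -0.69 in SHRs and -1.71, -1.66 and -1.52 in WKY rats, 1.98-fold higher (adjusted p = 3.21e-04). Zfp36, which speeds the decay of messenger RNA, read -4.30, -3.96 and -3.85 against -5.38, -5.41 and -4.93, 2.30-fold higher, and Myc was 1.57-fold higher. The strains did not overlap in these genes. With slide as a block none of the 3 was called, and the within-slide median of the list was -0.03. Fos stayed at background on all 6 arrays, Egr1 gave 0.90 and Dusp1 0.40, both not called, and the heat shock genes Hspa8 and Hspb1 gave 0.02 and -0.30.

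**Figure D4:**
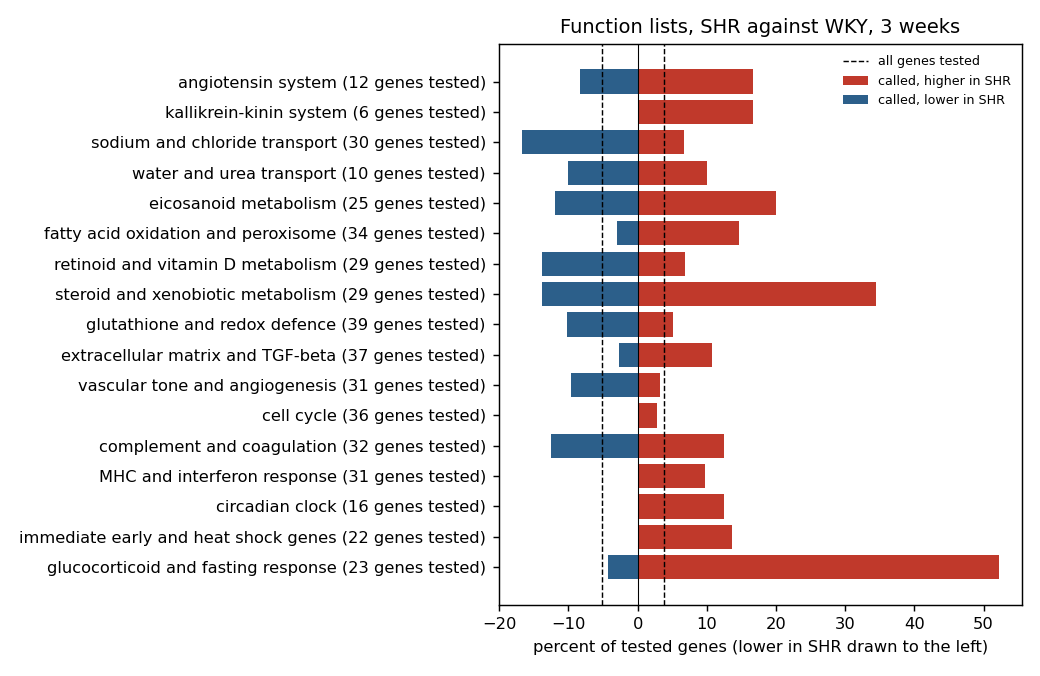
Share of the tested genes of each function list that was called higher in SHRs (red, to the right) or lower (blue, to the left), with broken lines at the shares over all genes tested, 3.86% and 5.17%. The longest bar is that of the glucocorticoid and fasting list, with 12 of 23 genes higher, followed by steroid and xenobiotic metabolism, with 10 of 29. Lists and members were chosen with earlier results of these data known.

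Of 12 proximal tubule markers 0 were higher and 2 lower: the organic anion transporters Slc22a6 and Slc22a8, with 1.29- and 1.24-fold, and the summed signals of the list overlapped. The most abundant marker of this list was Miox. Of the 5 thick ascending limb markers Cldn16, which lets magnesium and calcium pass between cells, and Egf were lower. Cldn16 read -2.22, -2.31 and -2.36 in SHRs and -1.47, -1.36 and -1.19 in WKY rats, 1.94-fold lower (adjusted p = 5.45e-05), without overlap. Umod carried 81.6% of the sum of that list and was not called. None of 7 podocyte markers was called by limma at the adjusted threshold, and their median was -0.02.

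The distal nephron sums were lower in SHRs. The summed scaled signal of the distal convoluted tubule list was 4.6, 5.40 and 5.33 on the SHR arrays and 6.68, 6.18 and 6.64 on the WKY arrays, with Slc12a3 the most abundant gene, and Calb1, which binds calcium, was the 1 called gene of 3, 1.57-fold lower. The principal cell list summed to 52.0, 42.1 and 52.6 against 63.3, 65.1 and 64.1, a ratio of 0.762, in which Aqp2 made up 79.5%. Aqp3 was the higher and Fxyd4 the lower called gene of its 6. The intercalated cell list summed to 7.33, 7.12 and 7.99 against 8.49, 8.90 and 9.32, with Slc4a1 the most abundant. Its proton pump subunits Atp6v1b1 and Atp6v1g3 were 1.27- and 1.33-fold lower, and 0 of 8 were higher. The SHR sums of these 3 lists lay below every WKY sum. Of all single probes tested, 21.4% likewise did not overlap between the strains, nor did the sums of the liver and immune cell lists. The most abundant genes of the 3 lists, Slc12a3, Aqp2 and Slc4a1, were not called. Whether the lower sums had a part in the sodium and chloride transport genes called lower was not tested.

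Endothelial markers gave 1 higher gene of 11, Ehd3 (1.40-fold), and their sums overlapped, with Plvap the most abundant. Immune cell markers gave 1 of 10, Laptm5 (1.42-fold), and their sum was 16.5, 15.3 and 16.4 in SHRs and 13, 10.6 and 13.6 in WKY rats, without overlap, where Lyz2 made up 78.3% and was not called. Of the T and B cell markers Cd3e, Cd8a, Cd79b and Ms4a1 were not well above background on any array. The part of immune cells in the higher signal of Cd74, RT1-Bb and RT1-Da was not tested.

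For other tissues, the share of measured markers bright enough to be tested ranged from 3 of 14 for skeletal muscle to 6 of 7 for blood. Adrenal markers gave 1 higher gene of 5, Hsd3b1, with overlapping sums and Th as the most abundant. Liver markers gave 1 higher (Ahsg, 1.77-fold) and 2 lower (Apoc3, 1.23-fold, and Fga) of 7, with sums of 3.21, 3.33 and 3.80 in SHRs and 4.13, 4.31 and 4.77 in WKY rats and Apoc3 as the most abundant. Skeletal muscle gave 1 of 3, Myl11, with overlapping sums. Fat gave 0 of 7, blood 1 of 6, which was lower, and nerve 1 of 6, namely Nefh, a neurofilament, at least 2.47-fold higher since no WKY array was well above background. The sums of the fat, blood and nerve lists overlapped between the strains, with Ucp1, Hbb-b1 and Sox10 as their most abundant genes.

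Called probes lay on every chromosome of the array's annotation. Of 18500 tested probes with a position, 1507 were called (8.15%), with the highest share on chromosome 16 (11.2%) and the lowest on chromosome X (4.89%). Of the windows of 5 Mb, the one with the most calls was chr5:135000001-140000000 in rn4, where 21 of 102 tested probes were called (20.6%), 7 higher and 14 lower in SHRs. It holds Cyp4a1, Cyp4a2, Cyp4a3 and Cyp4a8 as well as Tspan1 and Prdx1. The window chr20:5000001-10000000 is given because it holds Fkbp5 and Tff3, and 11 of its 89 tested probes were called (12.4%). In both windows some genes were called by more than 1 probe.

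The probes called at 3 weeks were then looked up at 6 weeks. Those arrays did not enter the differences at 3 weeks but had a part in the estimate of their spread. Neither the SHR nor the SHRSP arrays of 6 weeks shared a slide with the WKY arrays of that age, so strain and slide cannot be told apart in the 6-week differences and in the change from 3 to 6 weeks. Of the 1586 probes, 1339 (84.4%) had the same sign in SHRs against WKY rats at 6 weeks, and 973 were also called in that direction. Of all probes tested at that age, 29.2% were called in either direction. In SHRSP against the same WKY arrays at 6 weeks, 1358 (85.6%) had the same sign and 1000 were called so. Of all probes tested there, 28% were called in either direction. The share of all tested probes with the same sign at both ages is not given here, so the same-sign shares lack a background. The log2 differences at the 2 ages correlated across the 1586 probes with r of 0.71 for SHRs and 0.80 for SHRSP. For the 1275 probes under 2-fold at 3 weeks, 1074 had the same sign in SHRs at 6 weeks and 757 were called so.

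The change of the SHR difference from 3 to 6 weeks was tested itself. It was called for 1898 of 20577 probes (9.22%), and for 333 of the 1586 probes called at 3 weeks. Among the 143 named genes called at 3 weeks, the change was called for 47. Since these probes were chosen by their difference at 3 weeks, whether differences were smaller at 6 weeks was not tested. Acox2 (3.00 and 2.8), Adtrp (5.93 and 5.89), Inmt (2.64 and 2.33), Cftr (2.65 and 2.49) and Fkbp5 (2.39 and 1.94) gave similar log2 differences at 3 and 6 weeks, and their change was not called. Agt turned from -1.31 to 1.67, with a called change. Cyp4a2 went from 3.64 to 0.04 and Slco1a1 from 3.05 to 0.00, and in SHRSP against WKY rats at 6 weeks they gave -0.01 and 0.12.

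In some genes the change in SHRs was called while the SHRSP of 6 weeks gave a difference of the same sign as the SHRs of 3 weeks. Vegfb and Apoh, at background in the SHRs of 3 weeks and in the SHRSP of 6 weeks, gave -0.12 and 0.09 in SHRs at 6 weeks. Rxrg gave -3.47 at 3 weeks, -0.44 in SHRs at 6 weeks and -5.02 in SHRSP at 6 weeks, Serhl2 -2.75, 0.13 and -2.64, and Prp2l1, with 1 of 3 SHR arrays well above background at 6 weeks, 3.10, -0.47 and 3.23. All of these follow the pattern of the label check. They were picked here by that pattern, and Vegfb, Apoh and Rxrg are genes of the check itself, so they add nothing to it. Glucocorticoid and fasting genes were called higher in 12 of 23 in SHRs at 6 weeks, with 2 lower and a median of 0.41, where 7.51% of all genes were higher and 19.8% lower, and in 5 of 22 in SHRSP at 6 weeks, with 4 lower and a median of 0.04, where 6.5% of all were higher and 19.8% lower. In SHRSP at 3 weeks, which share the WKY arrays with the SHRs but no slide with those WKY arrays, and in which 30.1% of all tested probes were called, 16 of 24 were higher and 1 lower, with a median of 0.86, where 17.2% of all genes were higher and 14.2% lower. Sgk1 gave 1.17 in SHRs and -0.64 in SHRSP at 6 weeks.

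**Figure D5:**
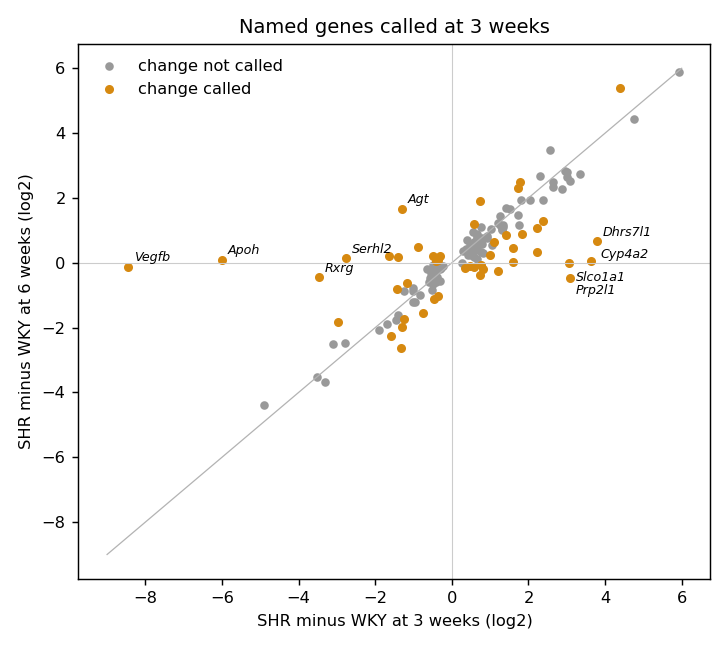
Log2 difference between SHR and WKY kidney at 3 weeks (horizontal) and at 6 weeks (vertical) for the 143 named genes called at 3 weeks, with a diagonal where both are equal. The change between the ages was called for the 47 genes in orange, and Vegfb, Apoh, Rxrg, Serhl2, Agt, Cyp4a2, Slco1a1, Prp2l1 and Dhrs7l1 lie farthest from the diagonal. Vegfb and Apoh are placed by background signals in SHRs at 3 weeks, so their distance from it is not measured.

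Of the 143 called named genes, 113 kept their call whichever of the 6 arrays was left out, and 89 were called with slide as a block. That estimate uses a single SHR array. The within-slide difference was smaller, among others, in Col4a2 (0.37 against 0.65), Cyp2d4 (0.25 against 0.50), Klf9 (0.25 against 0.40), Laptm5 (0.29 against 0.50), Mmp9 (0.52 against 0.78) and Serpina4 (0.33 against 0.64). Among the genes whose call was lost with slide as a block were Acot4, Ahsg, Akr1c12, Akr1c19, Atp6v1b1, Atp6v1g3, Btg2, C5, Calb1, Cebpb, Col4a2, Cyp26b1, Cyp2d4, Cyp2j4, Cyp4a1, Cyp4a8, Cyp4f5, Ehd3, F3, F5, Fga, Fxyd4, Gucy1a1, Gucy1b1, Hlf, Hrg, Hsd17b2, Igf1, Klf15, Klf9, Laptm5, Mmp9, Mt1, Mt2A, Myc, Nfe2l2, Oxsr1, Per1, Prdx1, Ptgds, Ptges, RT1-Bb, RT1-Da, Serpina4, Serping1, Slc22a8, Stk39, Sult1c3, Timp2, Zbtb16 and Zfp36. Besides the genes noted above, Ahsg, Apoc3, Atp6v1b1, Avpr1a, Calb1, Ehd3 and Timp2 lost theirs without at least 1 of the 6 arrays.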

How the data were processed

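The authors deposited the intensities of each array as written by Agilent Feature Extraction 10.5.1.1, whose processed signal is corrected for background, and the deposited series values were equal to it on every array. From the non-control spots, the mean of log2 intensity over the spots of a probe was computed after subtracting the log2 of the 75th percentile of spots well above background, and spots with failed quality marks were left out (273 to 480 on each of the 6 arrays). Of 30367 probes 30359 were fitted. All 18 arrays, in 6 groups by label, entered limma 3.58.1 in R 4.3.3 with a shared spread (13.9 total degrees of freedom), after the scripts had been tested on simulated data. Tested were probes with signal well above background throughout 1 or both of the groups compared, with Benjamini-Hochberg adjustment. Folds are those of the fitted log2 differences.

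Symbols were matched to current gene names by accession (17482 probes), name (2509) or synonym (697), giving 20688 probes with 1 symbol, while 192 had several and 9479 none. A gene was represented by its brightest probe over the 6 arrays. Probe positions are those of the array file in rn4. Named in each direction were the 10 largest differences over 4-fold and the 15 of smallest p between 2- and 4-fold. Both were taken from called genes without overlap, leaving out provisional names. Also named were all called members of the function and marker lists, and 5 genes for the label check. All members of the angiotensin, kallikrein-kinin and sodium and chloride lists were named as well. The results of some genes chosen by these rules are not reported here. Uncalled genes of other lists were named after their values were seen. Members and lists were chosen with earlier results of these data known. Alternatives were other percentiles, quantile normalization, normexp correction (offset 50), array weights, filters, blocks for slide, scan day and replicate number, the 6 arrays alone, and each array left out.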

Additional observations from a re-analysis of the deposited data

Results flagged for a closer look

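These genes were singled out by a limma test of the change itself: the SHR minus WKY difference at 6 weeks minus that at 3 weeks had an adjusted p under 0.05. All named genes were looked at, and the background over all probes was 9.22%. The values are log2, and a positive value means that the difference was higher at 6 weeks. The positive changes were Abcb10 1.84, Agt 2.98, Apoh 6.08, Aqp3 0.62, Cmahp 0.54, Cyp2s1 0.68, Egf 0.47, F2 1.39, Fmo2 0.60, Hrg 1.19, Ky 0.60, Myl11 0.73, Pxmp4 1.57, Rxrg 3.03, Serhl2 2.89, Serpina3m 1.02, Slc22a6 0.45, Slc22a8 0.52, Sox2 1.14 and Vegfb 8.32. The negative changes were Ace -1.54, Agtr1a -0.47, Agtrap -4.45, Akr1c12l1 -1.88, Btg2 -0.75, Ccn2 -1.17, Cryga -0.67, Cyp4a2 -3.60, Cyp4a3 -0.47, Cyp4a8 -0.58, Dhrs7l1 -3.12, Ephx2 -3.58, F3 -0.82, F5 -1.10, Gsta1 -0.95, Gucy1a1 -0.64, Gucy1b1 -0.66, Hsd17b2 -0.78, Klkb1 -0.94, Kng1 -1.52, Kng2 -1.49, Mme -0.50, Per1 -1.0, Prp2l1 -3.56, Ptgr1 -0.68, Slc17a3 -0.46, Slc9a3 -1.23, Slco1a1 -3.05, Spink1l -1.59, Sult1b1 -1.09, Tff3 -1.13, Timd2 -1.30 and Zfp36 -1.47. Vegfb and Apoh were at background in SHRs at 3 weeks and Serpina3m in WKY rats at both ages, so the sizes of their changes rest on background signals and are not measured. The same holds in part for Dhrs7l1, Klkb1, Per1, Prp2l1 and Sox2, where some arrays of a group were not well above background. Whether age, the strain label or the slide gave rise to them was not tested, since the SHR and WKY arrays of 6 weeks shared no slide with each other or with those of 3 weeks.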

How the results depend on the processing

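The values of 181 tested named genes were compared under each setting, except that the setting with only probes well above background on all 6 arrays gave no value for the genes it leaves out. The deposited series values changed no call, and the counts by size stayed within 1.5 times the reported ones except as follows. With array weights 3341 probes were called, 1084 higher and 2257 lower in SHRs, with 2965 under 2-fold. With the 6 arrays fitted alone 668 were called, 340 higher and 328 lower, with 389 under 2-fold, where fewer arrays give the spread. With slide as a block 754 were called, 275 higher and 479 lower, with 474 under 2-fold, where the estimate rests on a single SHR array. After normexp correction 32 were over 4-fold and 111 between 2- and 4-fold, and with only probes well above background on all 6 arrays 35 were over 4-fold, where genes without signal in 1 strain are left out. With quantile normalization the change with age was called for 2929 probes. For the array weights, normexp correction and quantile normalization the cause was not tested.

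Leaving out 1 array at a time gave 1139 to 1716 calls, 528 to 794 higher and 558 to 1173 lower, 73 to 86 over 4-fold, 211 to 254 between 2- and 4-fold and 837 to 1392 under 2-fold. Among named genes this ended 13 to 23 calls. With a replicate block 1526 probes were called, and 1723 for the change with age. Samples of the same number correlated in their deviations with r of -0.23, -0.08 and -0.43, so no sample correlated best with its own number, and the numbers were not taken as pairs.

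Signs turned only in genes that were not called, and the cause was not tested. With slide as a block the log2 differences were Ace -0.0603, Atp1b1 -0.12, Bdkrb2 -0.0715, Kng1 0.21, Nr3c2 -0.0366, Scnn1a -0.0552, Slc34a1 -0.0708, Slc9a3 -0.0208 and Wnk4 -0.19. Scaling by the 75th percentile of all spots gave Slc12a1 0.0273, and by that of probes well above background on all arrays Slc12a1 0.0287. Normexp correction gave Atp1b1 -0.10, Enpep -0.0809 and Nr3c2 -0.0688, quantile normalization Slc12a1 0.0261, and array weights Ephx2 -0.16 and Slc12a1 0.0196. With 1 array left out, the values ranged from -0.0550 to 0.0674 for Agtr1a, -0.0307 to 0.0623 for Atp1b1, -0.0267 to 0.131 for Enpep, -0.106 to 0.150 for Ephx2, -0.193 to 0.00321 for Nedd4l, -0.0288 to 0.0209 for Slc12a1 and -0.0115 to 0.0975 for Slc34a1.

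The counts of each list under every setting were added after the data had been seen. The number of arrays and of slides limits every result, and genes near background are known only as bounds.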
